A study of Mus musculus with 16 samples.

Results

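The genes described here are 9 parts of the beta-adrenergic and cyclic AMP (cAMP) signalling chain of fat cells: the receptors Adrb1 and Adrb3, the adenylyl cyclases Adcy5 and Adcy6, the protein kinase A subunits Prkaca and Prkar2b, and the phosphodiesterases Pde3b, Pde4b and Pde4d. They were chosen by name for their place in the chain, with earlier results of these data known. Of the 9 genes, 7 were matched to a probe set carrying 1 gene symbol, out of 22180 such genes on the array. The receptors Adrb1 and Adrb3 were not matched to such a probe set and were not analysed here. RNA came from the gonadal white fat of male C57BL/6 mice aged 3 to 4 months, collected in the morning. The 8 fasted samples are from mice without food for 16 hours, and the 8 fed samples from mice eating freely. The labels name no transgene, drug or mutation in either group. The study asked which transcripts of this depot change when food is withdrawn.

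Noradrenaline released from sympathetic nerves, and adrenaline from the blood, bind beta-adrenergic receptors on the fat cell, which act through the stimulatory G protein to switch on adenylyl cyclase. The cAMP that is made binds the regulatory subunits of protein kinase A and frees its catalytic subunits, which phosphorylate perilipin and hormone-sensitive lipase and so start the breakdown of stored triglyceride. Phosphodiesterases destroy cAMP, and the one encoded by Pde3b is the enzyme through which insulin restrains this breakdown in fat cells.

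Fasted fat had more RNA for the cyclase Adcy5 and the phosphodiesterase Pde3b, and less for the cyclase Adcy6 and the kinase catalytic subunit Prkaca. The signal of the phosphodiesterase Pde4d was higher too, but it was dim in all 16 samples. Whether it lay above background was not measured. Of the 7 measured genes, 3 were called higher and 2 lower in fasted samples. Pde4b and Prkar2b were not called. A call means a limma p under 0.05 after Benjamini-Hochberg adjustment over all 22180 genes. By that measure 19.2% of all genes were called, 8.49% higher and 10.7% lower, so a call alone is common on these arrays. Brighter genes were called more often. A fit to the genes with a mean above the median of all genes called 4577, with 1982 higher and 2595 lower. That is more than the 4251 called over all 22180 genes. All of the 7 genes but Pde4b and Pde4d lay above that median. With array medians subtracted first, 2086 genes were called higher and 1731 lower, against 1883 and 2368 without that step, while the 5 calls among the signalling genes and their directions were the same. In 4 of the 7 genes (Adcy5, Adcy6, Prkaca and Pde4d) no fasted sample overlapped a fed sample, which held for 6.48% of all genes. In whole tissue, fewer cells of a type and less RNA per cell cannot be told apart. Whether every sample is its own animal is not said in the labels, and the p-values cover the spread among these arrays alone.

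**Figure D1:**
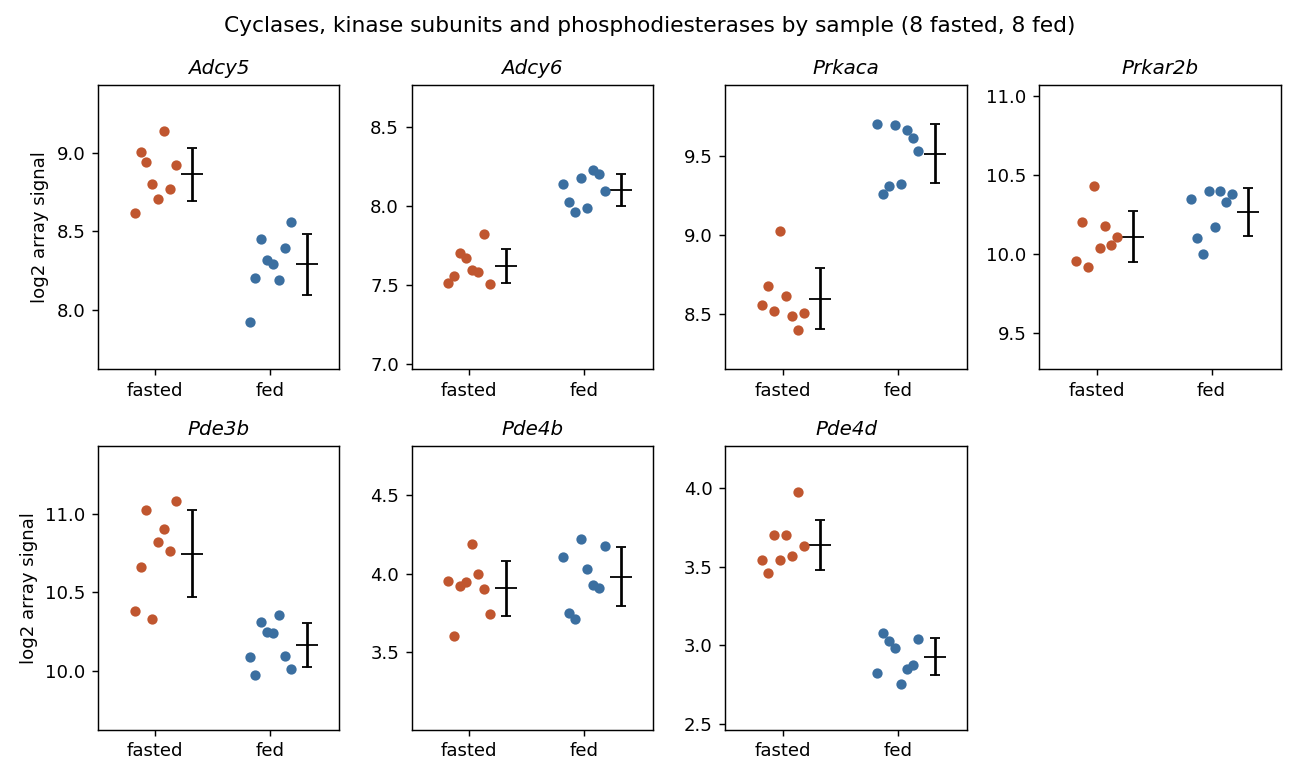
Log2 array signal of the 7 measured genes in each of the 8 fasted (left) and 8 fed (right) samples, 1 point per sample, with the mean and SD as a black bar. Every panel spans the same log2 range, and the groups separate fully for Adcy5, Adcy6, Prkaca and Pde4d.

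Signal here is the deposited log2 value of a probe set, and it can be compared between samples but not between genes. As a check of the tissue, fat cell markers were bright in every sample: the mean log2 signal of 7 measured markers, among them Adipoq, Fabp4 and Cidec, lay between 10.87 and 11.12 in fasted samples and between 10.91 and 11.22 in fed samples. Of these, Cidec was called higher, and Plin1 and Retn lower, with the call of Retn lost after subtraction of array medians (limma adjusted p = 0.0895). Markers of sympathetic neurons (Th, Dbh and 4 others) were dim, at means of 2.64 to 2.99 in fasted samples and 2.72 to 3.04 in fed samples, and 0 of 6 were called by limma (0 of 6 had an unadjusted p under 0.05). Fasted replicate 7 and fed replicate 2 were high for ciliated epithelium markers, with mean log2 signals of 4.49 and 5.05, against at most 3.39 in the other fasted samples and 3.41 in the other fed samples. Endothelial markers were called in 1 direction only, with 4 of 8 higher and 0 lower by limma, and are given with Adcy4 below. Their list median log2 fold change was 0.32. Of 8 macrophage markers, Cd68 and C1qb were called higher (log2 fold changes 0.88 and 0.30) and Mrc1 lower (-0.23), with a list median of -0.022. The call of Mrc1 was lost after subtraction of array medians (limma adjusted p = 0.0938) and on leaving out fasted replicate 3, 4, 5, 6 or 8 or fed replicate 2, 4, 6, 7 or 8 (up to 0.0743), and that of C1qb without fasted replicate 6 (0.0506). Of 7 progenitor markers, Cd34 and Col3a1 were called lower (-0.52 and -0.73), and Pdgfra and Dcn, at 0.24 and 0.18, were called higher only after subtraction of array medians (limma adjusted p = 0.0332 and 0.0430). Progenitor marker means were 8.91 to 9.57 in fasted samples and 9.23 to 9.46 in fed samples, and macrophage means 8.55 to 9.18 in fasted and 8.67 to 8.88 in fed samples. Their part in the results was not tested. Liver transcripts ranged from 6.35 to 8.46 in fasted samples and from 6.20 to 8.97 in fed samples, over a continuous range in which fed replicates 3, 2 and 4 were the highest, at 8.97, 8.69 and 8.58. Fasted replicate 7 and fed replicates 2 and 3 were left out together as an alternative, a choice taken from earlier results of these data. Without those 3 arrays the same 5 signalling genes were called, in the same directions.

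**Figure D2:**
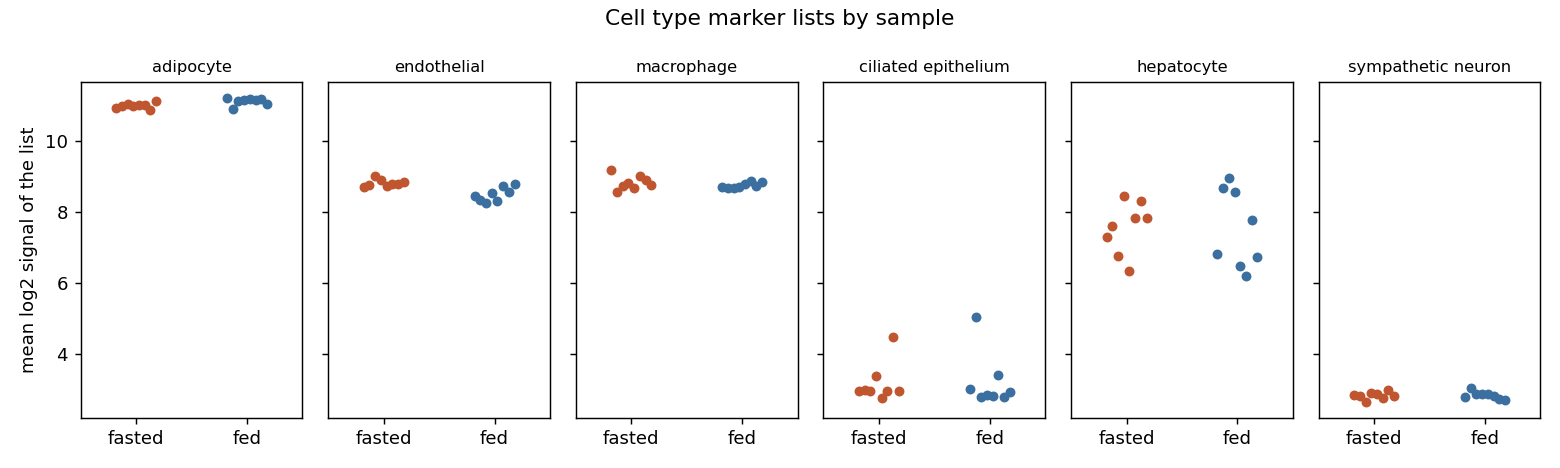
Mean log2 signal of 6 cell type marker lists in each fasted (left) and fed (right) sample. Fat cell markers stay within a narrow band, nerve markers stay dim, and ciliated epithelium markers are high in fasted replicate 7 (4.49) and fed replicate 2 (5.05).

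The cyclases that make cAMP changed in opposite directions. Adcy5, a cyclase that is inhibited by calcium and by inhibitory G proteins, had a lowest, median and highest log2 signal of 8.62, 8.86 and 9.13 in fasted samples, against 7.92, 8.30 and 8.56 in fed samples. Every fasted sample was above every fed sample, and the lowest fed value, in replicate 1, lay well under the others. The rise was 1.48-fold (log2 fold change 0.57, SE 0.091; limma adjusted p = 1.45e-04). Adcy6, the closest relative of Adcy5 in sequence and likewise inhibited by calcium, had 7.51, 7.59 and 7.82 in fasted samples, against 7.96, 8.12 and 8.23 in fed samples. All fasted samples were below all fed samples, and the spread within each group was the smallest of the 7 genes (SD 0.11 in fasted and 0.10 in fed samples, n = 8 each). Adcy6 fell 1.40-fold (log2 fold change -0.48, SE 0.064; limma adjusted p = 1.91e-05). The difference between the changes of Adcy6 and Adcy5 was tested within arrays: the Adcy6 minus Adcy5 log2 difference was -1.24 ± 0.21 in fasted samples and -0.19 ± 0.24 in fed samples (SD, n = 8 each), a shift of -1.05 (SE 0.11; two-sided exact permutation p = 0.000155, the smallest that 8 against 8 samples can give; Benjamini-Hochberg p = 0.000207 over 4 pairs of related genes). Both genes had their groups fully apart in opposite directions, so this permutation p was fixed by those separations and adds no further evidence.

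Of 7 other measured cyclases, Adcy4 was called higher and Adcy10 and Adcy7 lower. Adcy4, a cyclase stimulated by G protein beta-gamma subunits, stood at 7.48 ± 0.23 in fasted samples and 6.69 ± 0.23 in fed samples (SD, n = 8 each), with no overlap between the groups (log2 fold change 0.79, SE 0.11; limma adjusted p = 4.20e-05). Endothelial markers moved with Adcy4: 4 of 8 (Eng, Sox17, Pecam1 and Tek) were called higher and 0 lower by limma, and the mean log2 signal of the list was 8.71 to 9.01 in fasted samples and 8.26 to 8.78 in fed samples. Their part in the rise of Adcy4 was not tested. The call of Tek was lost on leaving out fasted replicate 1, 3, 4, 5, 6 or 8 or fed replicate 1, 2, 3 or 5 (limma adjusted p up to 0.0815), without the 3 arrays left out together (0.0859) and after subtraction of array medians (0.0505). Adcy10, the soluble cyclase, was dim in both groups (2.28 ± 0.10 in fasted and 2.73 ± 0.26 in fed samples), and Adcy7 fell by 0.35 on the log2 scale (SE 0.10; limma adjusted p = 0.0192). Counting Adcy5 and Adcy6, 2 of 9 measured cyclases rose, 3 fell and 4 were not called (55.6% called, against 19.2% of all genes).

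The kinase subunits did not change alike. Prkaca, which encodes the alpha catalytic subunit of protein kinase A, had a lowest, median and highest log2 signal of 8.39, 8.54 and 9.02 in fasted samples, against 9.26, 9.57 and 9.70 in fed samples. All fasted samples were below all fed samples, and the fasted sample nearest to the fed group was replicate 4, at 9.02. Prkaca fell 1.89-fold (log2 fold change -0.92, SE 0.094; limma adjusted p = 1.10e-06), and only 2.06% of all genes changed by as much in either direction. A dimmer probe set of Prkaca fell by 0.67 (SE 0.11), with means of 4.87 in fasted and 5.54 in fed samples (limma adjusted p = 2.17e-04 over all probe sets with 1 symbol). Prkar2b, which encodes the regulatory subunit that predominates in fat, had 9.91, 10.08 and 10.43 in fasted samples, against 10.003, 10.34 and 10.40 in fed samples. The groups overlapped, and the highest value of all 16 was that of fasted replicate 4. Its log2 fold change was -0.16, with a 95% interval of -0.33 to 0.017 (limma adjusted p = 0.227; two-sided exact permutation p = 0.0685, n = 8 each), so a fall of up to 0.33 on the log2 scale lies inside the interval. The Prkar2b minus Prkaca log2 difference was 1.52 ± 0.13 in fasted samples and 0.75 ± 0.082 in fed samples (SD, n = 8 each). The log2 fold changes of Prkar2b and Prkaca differed by 0.76 (SE 0.053; two-sided exact permutation p = 0.000155, Benjamini-Hochberg p = 0.000207).

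Promoter windows are shown for Prkaca and Prkar2b, partners in 1 enzyme that did not change alike, and for Adcy5 and Pde4d, which were called higher. Each window runs from 250 bases before to 50 bases after a transcription start in RefSeq (build GRCm38.p6), and capitals mark letters of the motifs TGACGTCA (the cAMP response element), TGACG (its shorter core, which also lies inside it), CACGTG (the E-box) and GTAAACA (a forkhead core), searched on both strands. The windows lie at chr8:83972728-83973027 on the plus strand for Prkaca, chr12:32061228-32061527 on the minus strand for Prkar2b, chr16:35154614-35154913 on the plus strand for Adcy5 and chr13:108653927-108654226 on the plus strand for Pde4d.
Prkaca: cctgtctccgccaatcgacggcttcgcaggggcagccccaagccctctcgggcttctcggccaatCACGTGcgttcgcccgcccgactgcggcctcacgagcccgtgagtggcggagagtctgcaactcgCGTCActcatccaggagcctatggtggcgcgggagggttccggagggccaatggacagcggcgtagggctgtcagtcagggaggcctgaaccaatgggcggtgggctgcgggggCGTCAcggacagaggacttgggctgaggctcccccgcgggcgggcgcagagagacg
Prkar2b: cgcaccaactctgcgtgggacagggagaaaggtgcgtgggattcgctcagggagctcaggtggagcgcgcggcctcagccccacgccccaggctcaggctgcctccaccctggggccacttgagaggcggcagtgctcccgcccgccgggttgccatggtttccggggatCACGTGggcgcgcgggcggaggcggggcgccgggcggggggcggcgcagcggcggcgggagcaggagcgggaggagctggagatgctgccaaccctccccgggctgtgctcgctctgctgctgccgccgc
Adcy5: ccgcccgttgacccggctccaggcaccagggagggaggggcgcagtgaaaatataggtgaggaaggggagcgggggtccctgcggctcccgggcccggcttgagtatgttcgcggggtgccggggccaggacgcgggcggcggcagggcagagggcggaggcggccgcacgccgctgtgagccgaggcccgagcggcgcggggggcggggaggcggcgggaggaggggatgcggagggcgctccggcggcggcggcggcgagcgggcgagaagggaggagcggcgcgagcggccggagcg
Pde4d: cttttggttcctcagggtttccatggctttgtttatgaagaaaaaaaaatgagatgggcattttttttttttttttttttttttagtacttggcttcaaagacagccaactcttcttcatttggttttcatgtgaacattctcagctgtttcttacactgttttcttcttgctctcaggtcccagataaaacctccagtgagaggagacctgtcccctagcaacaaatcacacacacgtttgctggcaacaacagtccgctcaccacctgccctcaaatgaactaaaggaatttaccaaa

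The Prkaca window shown held CACGTG from base 66 and TGACG, read on the opposite strand, from bases 131 and 245, counted from the first base of the window. The Prkar2b window shown held CACGTG from base 171. Prkaca and Prkar2b each have 1 more start in the table, and its window, not shown, held none of the 4 motifs in either gene. The Adcy5 and Pde4d windows, each the only window of its gene that was searched, held none of the 4 motifs. Among windows not shown, TGACG lay in that of Adrb1 from base 161. It also lay in a window of Pde4b from base 217. Among all 32851 windows in the RefSeq promoter table, 1.79% held TGACGTCA, 20.8% TGACG, 7.15% CACGTG and 3.65% GTAAACA. Of the 9 genes 6 matched the table, with 11 windows in all, and none of the 11 held TGACGTCA. A match of letters is a description of the window and shows no binding.

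Of 6 other measured kinase subunits and inhibitors, 1 rose, 2 fell and 3 (Prkar1b, Prkar2a and Pkib) were not called. The share called was 50%, against 19.2% of all genes. Prkar1a, a regulatory subunit, rose by 0.24 (SE 0.062; limma adjusted p = 0.00885). Pkia, an inhibitor that binds free catalytic subunits, fell to 5.21 ± 0.19 in fasted samples, against 5.78 ± 0.26 in fed samples (SD, n = 8 each; limma adjusted p = 8.24e-04). Prkacb, the beta catalytic subunit, fell by 0.23 (SE 0.079; limma adjusted p = 0.0445), a call lost after subtraction of array medians (adjusted p = 0.0845), without the 3 arrays left out together (adjusted p = 0.170), and on leaving out fasted replicate 1, 3, 5, 6, 7 or 8 or fed replicate 1, 2, 3, 6 or 7 (limma adjusted p up to 0.0916). Among 14 genes of anchoring proteins, which tether the kinase to places in the cell, Akap13 rose and Akap6 and Akap7 fell. These calls were 21.4% of the list, near the 19.2% of all genes called. Akap13 was at 8.63 ± 0.14 in fasted samples and 7.92 ± 0.077 in fed samples, with no overlap (log2 fold change 0.71, SE 0.066; limma adjusted p = 3.44e-07). Akap7 fell by 0.38 and the dim Akap6 by 0.39.

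Among the phosphodiesterases, Pde3b and the dim Pde4d were called higher and Pde4b was not called. Pde3b, the insulin-activated enzyme of the fat cell, had a lowest, median and highest log2 signal of 10.33, 10.79 and 11.08 in fasted samples, against 9.98, 10.17 and 10.35 in fed samples. Of the 8 fasted samples, 7 were above every fed sample, and the exception was fasted replicate 4, at 10.33, just under the highest fed sample at 10.35. The rise was 1.49-fold (log2 fold change 0.58, SE 0.11; limma adjusted p = 5.36e-04). Its SD was 0.27 in fasted and 0.14 in fed samples, the widest spread of the 7 genes in the fasted group.

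Pde4d, a cAMP-specific enzyme of the rolipram-sensitive family, had 3.46, 3.601 and 3.97 in fasted samples, against 2.76, 2.93 and 3.08 in fed samples. The groups were well apart, and the highest fasted value was that of replicate 7, which carried ciliated epithelium transcripts. Pde4d was called higher (log2 fold change 0.71, SE 0.076; limma adjusted p = 1.76e-06), and its log2 fold change was 0.66 without fasted replicate 7. Its signal was dim, below a linear value of 20 (4.32 on the log2 scale) in all 16 samples. The deposited values carry no detection call, so whether either probe set of this family lay above background was not measured, and the size of the change in RNA is uncertain. Pde4b, of the same family, was dim too, with 3.604, 3.93 and 4.19 in fasted samples, against 3.71, 3.98 and 4.22 in fed samples. Those ranges overlapped almost entirely, and the log2 fold change was -0.072 with a 95% interval of -0.26 to 0.12 (limma adjusted p = 0.692). The log2 fold changes of Pde4d and Pde4b differed by 0.78 (SE 0.11; two-sided exact permutation p = 0.000155, Benjamini-Hochberg p = 0.000207). Those of Pde3b and Pde4b differed by 0.65 (SE 0.15; two-sided exact permutation p = 0.00109, Benjamini-Hochberg p = 0.00109). The Pde4d minus Pde4b log2 difference was -0.27 ± 0.20 in fasted samples and -1.05 ± 0.25 in fed samples (SD, n = 8 each).

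**Figure D3:**
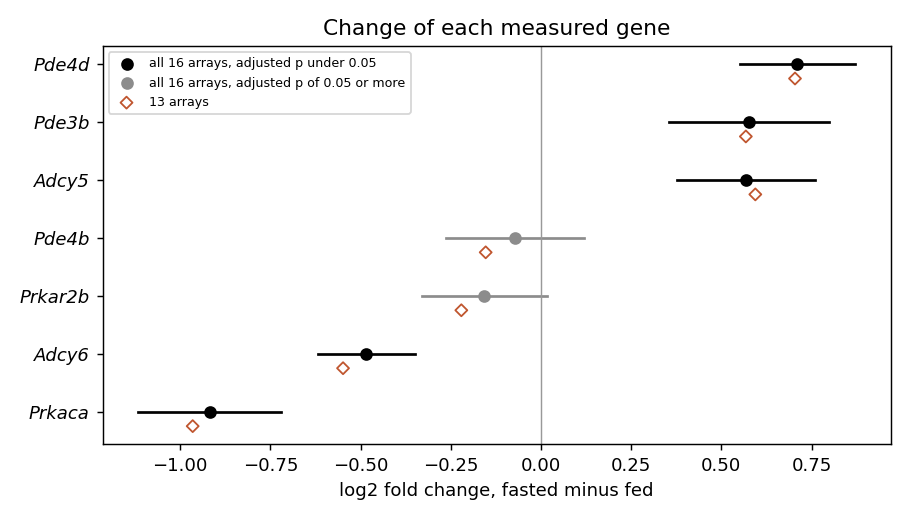
Log2 fold change, fasted minus fed, of the 7 measured genes. Filled points are the fit to 16 arrays with 95% intervals (black where called, grey where not), and open diamonds the fit to 13 arrays without fed replicates 2 and 3 and fasted replicate 7. Adcy5, Pde3b and Pde4d lie right of 0, Adcy6 and Prkaca left of it, and the intervals of Pde4b and Prkar2b include 0.

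Of 13 other phosphodiesterases that can act on cAMP, 5 rose, 2 fell and 6 were not called. Pde1b, a calcium-activated enzyme, had the largest change of the family. It was at 6.72 ± 0.27 in fasted samples and 5.54 ± 0.20 in fed samples, with no overlap (log2 fold change 1.18, SE 0.11; limma adjusted p = 4.45e-07). Pde2a, which is stimulated by cyclic GMP, rose by 0.44 (SE 0.086; limma adjusted p = 0.00107), and Pde10a, with signals of 4.40 to 4.83 in fasted and 4.04 to 4.32 in fed samples, by 0.41 (SE 0.068; limma adjusted p = 1.94e-04). The other calls were Pde3a and Pde8a, higher by 0.36 and 0.25, and Pde4a and Pde1a, lower by -0.39 and -0.38, named because the counts are small. The call of Pde3a was lost without fed replicate 5 or 7 (adjusted p up to 0.0517). That of Pde8a was lost without fasted replicate 1, 3, 7 or 8 or fed replicate 3, 4, 5 or 7 (limma adjusted p up to 0.0731), and without the 3 arrays left out together (0.0971). With the 3 genes above, 7 of 16 phosphodiesterases rose, the dim Pde4d among them, and 2 fell. The family's median log2 fold change was 0.044, against -0.0042 over all genes. The share called was 56.25%, against 19.2% of all genes, a share that was larger among brighter genes.

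Upstream of the cyclases, most receptors were not matched to a probe set carrying 1 gene symbol and were not analysed here. Of 7 other adrenergic receptors, 2 were matched, and neither Adra1b (log2 fold change -0.26; limma adjusted p = 0.107) nor Adra2c (-0.10; 0.718) was called. Of 10 measured G protein genes, 2 rose and 2 fell (40% called, against 19.2% of all genes). Gnal, which encodes a stimulatory alpha subunit best known from olfactory neurons, was at 3.72 to 5.88 in fasted samples and 2.55 to 3.55 in fed samples, with no overlap (log2 fold change 1.15, SE 0.28; limma adjusted p = 0.00545). Most fasted values of Gnal were dim, and replicates 6 and 8 stood above the rest at 5.28 and 5.88. Gnai1, an inhibitory alpha subunit, fell by 0.32 with no overlap (SE 0.068; limma adjusted p = 0.00203), Gnb4 fell by 0.59 and Gng12 rose by 0.30. The probe set of Gnas, the stimulatory alpha subunit itself, read 3.52 ± 0.042 in fasted and 3.53 ± 0.044 in fed samples, a dim signal for a broadly expressed gene.

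Of the genes that switch receptors off, 3 of 6 fell and 1 rose (66.7% called, against 19.2% of all genes). The receptor kinase Grk3 was at 4.65 ± 0.24 in fasted samples and 5.24 ± 0.17 in fed samples (log2 fold change -0.59, SE 0.10; limma adjusted p = 3.46e-04). The arrestin Arrb1 fell by 0.39 (SE 0.096; limma adjusted p = 0.00609) and the kinase Grk6 by 0.25. Grk5 was called higher, by 0.31 (limma adjusted p = 0.0479), a call lost without any 1 of the 8 fasted arrays or of fed replicates 1, 2, 3, 5 and 8 (adjusted p up to 0.0965), and without the 3 arrays left out together (adjusted p = 0.262).

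**Figure D4:**
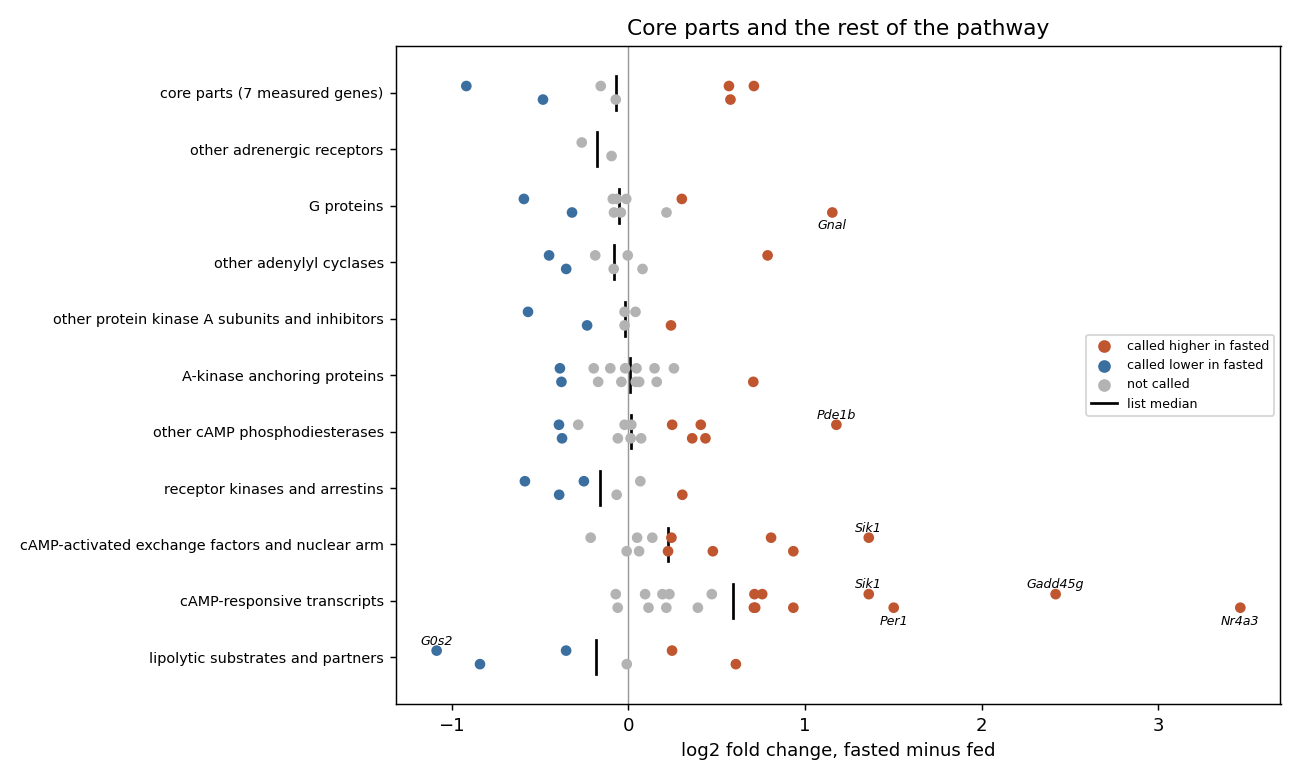
Log2 fold change, fasted minus fed, of each gene in 11 lists of the pathway, orange where called higher in fasted samples, blue where called lower and grey where not called, with the list median as a black line. Called genes that changed by at least 1 on the log2 scale are named, and the list of cAMP-responsive transcripts has its median at 0.59 with 0 of 18 genes called lower.

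Downstream of cAMP, all calls were rises in the list of the nuclear arm and exchange factors and among cAMP-responsive transcripts. Whether the kinase took part in these rises was not tested. Of 11 genes of the nuclear arm and the cAMP-activated exchange factors, 6 rose and 0 fell (limma), with a median log2 fold change of 0.22. The share called was 54.5%, against 19.2% of all genes. Among the 6, Sik2 (log2 fold change 0.22) lost its call without fasted replicate 2, 3, 5 or 8 or fed replicate 1, 2, 7 or 8 (limma adjusted p up to 0.0614). Sik1, a salt-inducible kinase whose gene is switched on by cAMP, was at 7.54 to 8.34 in fasted samples and 6.08 to 7.00 in fed samples (log2 fold change 1.36, SE 0.13; limma adjusted p = 3.93e-07). Crem, which encodes activators and a cAMP-induced repressor, was at 5.11 to 6.50 in fasted samples and 4.72 to 5.13 in fed samples, so that the lowest fasted and highest fed samples overlapped (log2 fold change 0.93, SE 0.14; limma adjusted p = 1.01e-04), and the kinase Sik3 rose by 0.81 (SE 0.082; limma adjusted p = 9.16e-07). Creb1, the factor that binds the cAMP response element, had a log2 fold change of 0.049 (limma adjusted p = 0.743).

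Of 18 transcripts known to respond to cAMP, 9 rose and 0 fell (limma), and their median log2 fold change was 0.59. Over all genes 8.49% were called higher and 10.7% lower. This list and that of the nuclear arm were chosen with earlier results of these data known, so their counts are a description. Of these 18, 4 (Crem, Sik1, Pde4b and Pde4d) also stand in lists above; of the other 14, 6 rose and 0 fell. Nr4a3, an orphan nuclear receptor, was at 6.18 to 8.11 in fasted samples and 3.48 to 4.30 in fed samples, Gadd45g, a stress-response gene, at 8.92 to 10.11 in fasted and 6.79 to 7.27 in fed samples, and the clock gene Per1 at 7.08 to 8.27 in fasted and 6.17 to 6.78 in fed samples. Their log2 fold changes were 3.46, 2.42 and 1.502, and in each the groups were fully apart. The call of Nr4a1 was lost without the 3 arrays left out together (adjusted p = 0.0768). Other classic transcripts of the list were not called, among them Fos (log2 fold change 0.47; limma adjusted p = 0.192) and Ppargc1a (0.39; 0.194), and Ucp1 and Dio2 were dim.

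At the lipid droplet, where the kinase acts, 2 of 6 genes rose, 3 fell and Lipe was not called (83.3% called, against 19.2% of all genes). Plin1, the perilipin that the kinase phosphorylates, was at 9.80 ± 0.18 in fasted samples and 10.64 ± 0.14 in fed samples, and G0s2, an inhibitor of the lipase Pnpla2, at 7.32 ± 0.60 in fasted and 8.40 ± 0.25 in fed samples (SD, n = 8 each). Pnpla2 rose by 0.61, Mgll fell by 0.35, and the kinase substrate Lipe had a log2 fold change of -0.0093 (limma adjusted p = 0.947). Abhd5, the co-activator of Pnpla2, was called higher by 0.25, a call lost without fasted replicate 5, 7 or 8 or fed replicate 1, 2, 4 or 6 (adjusted p up to 0.0665) and without the 3 arrays left out together (adjusted p = 0.145).

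Variation among samples of 1 group was compared between the 7 genes. In fed samples Prkar2b, Prkaca and Adcy6 varied together: Pearson's r was 0.903 for Prkar2b with Prkaca (exact permutation p = 0.00794, n = 8), with Spearman's rho of 0.762 (exact permutation p = 0.0368). It was 0.880 for Prkar2b with Adcy6 (exact permutation p = 0.00511; rho 0.810, exact permutation p = 0.0218) and 0.900 for Prkaca with Adcy6 (exact permutation p = 0.00657; rho 0.714, exact permutation p = 0.0576). None of these passed adjustment over the 42 relations computed, 21 pairs in each group (Benjamini-Hochberg p = 0.111 for each by Pearson's r, and 0.591 by Spearman's rho, exact permutation). Without the 2 samples farthest from the median of the first gene named, r was 0.859, 0.807 and 0.872. In each of these pairs those samples were fed replicates 2 and 3, which held low values of all 3 genes. In fasted samples r for Prkar2b with Prkaca was 0.762 (exact permutation p = 0.0442; rho 0.333, exact permutation p = 0.428), and 0.178 without the 2 farthest samples, so it rested on those.

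Likeness to genes over the whole array was measured as Pearson's r over 16 samples after group means were removed, as a description. The genes most like Prkaca were Tenm4 (r = 0.906) and Ifi27 (r = 0.903), which themselves changed by -1.98 and -0.58 on the log2 scale. Those most like Pde3b were Prpf6 and Fitm2, which is known for its part in lipid droplet formation (r = 0.885 each), and those most like Prkar2b were Mtmr6 (r = 0.904) and Rap1gap2 (r = 0.886). Adcy6 was closest to Smad6 (r = 0.878) and Fam43a (r = 0.866), and Pde4b to Csk (r = 0.846) and Tmem30a (r = 0.812). The closest to Pde4d were Olfr315 (r = 0.835) and Bcl2l1 (r = 0.827), and to Adcy5 Olfr133 (r = 0.837) and Mir367 (r = 0.824). Without the 3 arrays left out together the r of Bcl2l1 with Pde4d was 0.598, and the others lay between 0.732 and 0.929. These were the highest values over all genes, and no p is given.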

How the data were processed

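RNA of 16 gonadal white fat samples was measured on Affymetrix arrays with whole-transcript labelling, per the labels' protocols. The deposited values are log2 signals, and RMA (background correction, normalization between arrays and probe set summary) is named in the submitters' processing notes; the sources used here do not give its version or any filter. That the unit is log2 follows from the range of the values, 0.99 to 13.2. RMA sets arrays to a shared distribution, so changes are relative to other transcripts. No scan date or batch was given, and the number of arrays limits the precision.

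Of 41345 probe sets, the platform annotation gave 23521 a single gene symbol and 1814 several; 16010 were unnamed here. The probe set with the highest mean was taken per gene. Fasted minus fed was fitted with limma 3.58.1 (lmFit, eBayes) in R 4.3.3 over 22180 genes, and checked on simulated data. Differences between related genes used exact permutation tests over samples; the pair Adrb3 and Adrb1 was not analysed here. The genes and lists were chosen with earlier results of these data known. Besides the 9 genes, the text names in each list up to 3 called genes by size of change, or, with no call in a list, its gene of lowest p, the 2 genes most like each, and list genes that make up a count of 5 or fewer. Adra2c, Gnas, Creb1, Fos, Ppargc1a, Ucp1, Dio2, Lipe, Nr4a1, Sik2 and the cell type markers fell outside this rule and were chosen after their values were seen. Promoter letters are from RefSeq. Figures used matplotlib 3.10.9 in Python 3.11.15.

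Alternatives were 2 filters on dim genes, subtraction of array medians, cyclic loess, quantile normalization, array weights, trended and robust eBayes, a replicate block, an exact rank sum test, the lowest probe set, all probe sets, a threshold of 0.01, each array left out, and 3 arrays left out together.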

Additional observations from a re-analysis of the deposited data

Results flagged for a closer look

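Single samples lay far from the rest of their group of 8 in 6 of 98 gene and group combinations examined by Dixon's ratio at its 95% level; chance flags about 1 in 20. Among the signalling genes, Prkaca in fasted replicate 4 was at 9.02, against 8.39 to 8.67 in the other fasted samples, and without that sample its log2 fold change was -0.98. Pde4d in fasted replicate 7 was at 3.97, against 3.46 to 3.70 in the others. Pde2a was low in the same sample, at 9.20 against 9.43 to 9.61. In fed replicate 3, Pkia was low at 5.23, against 5.67 to 6.02, and Crem high at 5.13, against 4.72 to 4.89. Tmem30a, named for its likeness to Pde4b, was low in fasted replicate 2, at 8.90 against 9.21 to 9.42.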

How the results depend on the processing

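The 5 calls among Adcy5, Adcy6, Prkaca, Pde3b and Pde4d kept their direction and call in every alternative that tested them, and Pde4b and Prkar2b were called in none. Pde4b and Pde4d were removed by both filters on dim genes, which left 4 called genes. With 1 array left out, log2 fold changes ranged from 0.52 to 0.61 for Adcy5, from -0.51 to -0.47 for Adcy6, from -0.98 to -0.89 for Prkaca, from 0.53 to 0.64 for Pde3b and from 0.66 to 0.74 for Pde4d. Over all genes 3823 to 4265 were called with 1 array left out, and 2766 (1214 higher and 1552 lower) at an adjusted p under 0.01. With the replicate number as a block, 3829 genes and the same 5 signalling genes were called; same-numbered samples did not deviate together (correlations from -0.22 to 0.22, 1 of 8 best with its own number), so the numbers were not taken as pairs, and the block changed no other call among the 7 genes. Among kinase subunits and inhibitors the genes called lower numbered 1 after subtraction of array medians and 1 without fed replicates 2 and 3 and fasted replicate 7. Without those 3 arrays, 0 receptor kinases and arrestins (limma) and 1 lipolytic gene were called higher. The cause of these shifts was not tested.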

Other observations

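Fasted replicate 4 resembled the fed group in several signalling genes, a pattern noticed after the values were seen. It was the fasted sample nearest to the fed mean in 2 of the 5 called genes (Prkaca and Pde3b) and in 14 of 41 other called genes of the pathway lists (34.1%). Over all 4251 called genes it was the nearest fasted sample in 25.5%, so the closeness was not shown to be particular to this pathway. Its Nr4a3 was 6.18, the lowest of the fasted samples but above every fed sample, and its Crem was 5.11, the lowest of the fasted samples. Its mean liver marker signal was 8.46, the highest of the fasted samples, whose range began at 6.35. Among fed samples, replicate 2 was the nearest to the fasted mean in 26.8% of the 41 genes and in 23.3% of all called genes.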
